A study of Mus musculus with 12 samples.

Results

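The 9 genes described here are the CXC chemokines Cxcl1, Cxcl2, Cxcl5, Cxcl9, Cxcl10, Cxcl12, Cxcl13, Cxcl14 and Cxcl16, taken by gene symbol from 52858 genes measured in mouse hearts. RNA was sequenced from 12 hearts of male mice aged 3 to 5 months, with 3 hearts in each of 4 groups, to compare ischemia–reperfusion (IR) with uninterrupted perfusion in 2 genotypes. C57-non-IR and C57-IR hearts came from C57BL/6J mice. Slit2-non-IR and Slit2-IR hearts came from Slit2-Tg mice, which overexpress Slit2, a secreted guidance protein, from a full-length human cDNA behind the CMV promoter, a promoter active in many cell types. The transgene was made in oocytes of a C57 and CBA cross, and the controls were mice of the background strain. All hearts were perfused ex vivo with buffer by the Langendorff method, so that no blood circulated through them. IR hearts were perfused for 20 min, left without flow for 20 min and reperfused for 40 min, and non-IR hearts were perfused for 80 min without a break.

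CXC chemokines are small secreted proteins that direct leukocyte migration through G protein-coupled receptors, and they are named for a pair of conserved cysteines separated by another residue. Cxcl1, Cxcl2 and Cxcl5 act on Cxcr2 and attract neutrophils, whereas Cxcl9 and Cxcl10 act on Cxcr3 and attract activated T cells. Cxcl12 acts on Cxcr4 and on the scavenging receptor Ackr3, and retains and guides progenitors and lymphocytes in resting tissue. Cxcl13 guides B cells through Cxcr5, Cxcl16 is made as a membrane-bound ligand of Cxcr6, and Cxcl14 is made constitutively in many tissues. In injured heart muscle the neutrophil-attracting members are known as early transcripts that follow TNF, IL-1 and NF-kB signalling.

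Values are FPKM, fragments on a gene scaled by its length and by library depth, and levels are compared between genes only on this per-length scale. Fold differences were tested on log2(FPKM + 1), a scale that understates the change of genes near or below 1 FPKM. Between 16601154 and 24841291 reads lay on genes in each library, of which 19.7% to 26.0% were mitochondrial. The row for mouse Slit2 held 0.0847 to 0.813 FPKM and did not separate the genotypes. The transgene is a human cDNA, so this row does not check the genotype labels. Ventricular cardiomyocyte markers were abundant in every library, with a sum of 10462 to 15431 FPKM over 5 genes. With tissue of many cell types, fewer cells of a type and less RNA per cell cannot be told apart.

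Of the 9 genes, 6 lie on chromosome 5 (GRCm38). Cxcl5 (chr5:90759360-90761624), Cxcl1 (chr5:90891241-90893115) and Cxcl2 (chr5:90903871-90905938) are on the plus strand, and 10755 bases separate Cxcl1 from Cxcl2. Cxcl9 (chr5:92321347-92328079) and Cxcl10 (chr5:92346638-92348889) are on the minus strand 18558 bases apart, and Cxcl13 (chr5:95956951-95961068) lies on the plus strand beyond them. Cxcl12 is at chr6:117168535-117181367 (plus strand), Cxcl14 at chr13:56288643-56296551 (minus) and Cxcl16 at chr11:70453983-70459984 (minus). In this order the Ensembl identifiers are ENSMUSG00000029371, ENSMUSG00000029380, ENSMUSG00000058427, ENSMUSG00000029417, ENSMUSG00000034855, ENSMUSG00000023078, ENSMUSG00000061353, ENSMUSG00000021508 and ENSMUSG00000018920, and all are annotated as protein coding. The gene lengths used for FPKM were the union of annotated exons, which takes in the whole gene span for Cxcl1 (1875 bases), Cxcl2 (2068 bases) and Cxcl10 (2252 bases), whereas the longest coding transcripts of Cxcl1 and Cxcl10 are 953 and 1353 bases long. Levels of Cxcl1 and Cxcl10 per length are thus low relative to genes counted over spliced exons, and comparisons of the same gene between groups are not affected. Cxcl2 shared 3.37% of its 50-base windows with Cxcl3. Cxcl16 shared 19.0% with Zmynd15, which overlaps it on the opposite strand.

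The promoters of 4 members are shown because their transcripts took different courses after IR, and because 3 of them hold the consensus for NF-kB, the transcription factor of TNF and IL-1 signalling. Each run is the 250 bases upstream of the RefSeq start site in GRCm38.p6, written 5′ to 3′ on the strand of the gene. Capitals mark matches to the NF-kB consensus and, near the 5′ end of the Cxcl10 run, to the interferon-stimulated response element (ISRE, searched as GAAA, any 2 bases and GAAA). The windows are chr5:90890995-90891244 for Cxcl1, chr5:90903649-90903898 for Cxcl2, chr5:92348890-92349139 for Cxcl10 and chr6:117168285-117168534 for Cxcl12.
Cxcl1: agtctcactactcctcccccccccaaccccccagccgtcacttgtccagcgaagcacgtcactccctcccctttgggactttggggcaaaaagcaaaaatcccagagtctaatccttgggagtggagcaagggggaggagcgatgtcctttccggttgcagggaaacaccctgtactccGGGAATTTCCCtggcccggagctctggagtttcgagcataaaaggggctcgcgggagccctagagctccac
Cxcl2: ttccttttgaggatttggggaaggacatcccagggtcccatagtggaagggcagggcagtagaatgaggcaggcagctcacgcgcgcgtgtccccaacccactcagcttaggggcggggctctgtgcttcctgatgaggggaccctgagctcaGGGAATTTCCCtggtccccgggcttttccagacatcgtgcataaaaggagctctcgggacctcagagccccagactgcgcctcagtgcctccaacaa
Cxcl10: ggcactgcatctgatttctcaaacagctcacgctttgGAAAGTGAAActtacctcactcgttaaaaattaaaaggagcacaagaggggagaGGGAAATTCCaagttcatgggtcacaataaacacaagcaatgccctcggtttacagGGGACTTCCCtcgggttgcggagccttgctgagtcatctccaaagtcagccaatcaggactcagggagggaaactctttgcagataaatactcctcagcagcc
Cxcl12: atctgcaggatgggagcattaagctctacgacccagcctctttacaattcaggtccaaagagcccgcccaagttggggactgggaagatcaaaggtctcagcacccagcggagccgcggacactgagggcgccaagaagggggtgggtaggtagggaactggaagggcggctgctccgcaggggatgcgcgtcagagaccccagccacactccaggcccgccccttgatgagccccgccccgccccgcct

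RefSeq promoters were matched for 7 of the 9 genes, the exceptions being Cxcl5 and Cxcl16. On either strand, the NF-kB consensus was found in the promoters of Cxcl1 (positions -71 to -61, counted as negative numbers back from the start site), Cxcl2 (-97 to -87) and Cxcl10 (-159 to -150 and -103 to -94). In Cxcl1 and Cxcl2 the matches on the 2 strands overlap each other. The consensus was not found in these windows of Cxcl9, Cxcl12, Cxcl13 and Cxcl14, and 3.90% of 32817 mouse promoters of the same length hold it. The ISRE letters were found in Cxcl10 (-213 to -204) and Cxcl14 (-172 to -163), and in 2.97% of all promoters. An AP-1 word (TGANTCA, in 6.75% of promoters) was found in Cxcl10, and a GAS word (TTCNNNGAA, in 7.02%) in Cxcl14. The Cxcl12 promoter held the GC box GGGCGG in 5 places and Cxcl2 held it in 1, against 32.7% of promoters with at least 1 copy. TATAAA was found in the promoters of Cxcl9 and Cxcl13 and in 12.4% of all. A match describes the letters only and does not show binding.

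In non-IR hearts the family was dominated by its constitutive members. Cxcl12 and Cxcl14 together made up 74.0% to 86.2% of the summed FPKM of the 9 genes in C57-non-IR libraries and 69.6% to 88.1% in Slit2-non-IR libraries. After IR their share was 29.5% to 56.5% in C57-IR and 44.8% to 48.4% in Slit2-IR libraries. The neutrophil-attracting Cxcl1, Cxcl2 and Cxcl5 took 9.14% to 19.9% in C57-non-IR, 36.7% to 62.6% in C57-IR, 6.48% to 24.3% in Slit2-non-IR and 43.1% to 48.0% in Slit2-IR libraries. The shares of non-IR and IR libraries did not overlap in either genotype. Per length of the longest coding transcripts, Cxcl12 and Cxcl14 held 64.6% to 86.9% in non-IR and 23.8% to 50.3% in IR libraries. Cxcl9 and Cxcl10 stayed a small part, with 1.24% to 2.09% in the 6 non-IR libraries and 3.30% to 4.80% in the 6 IR libraries. The summed level over the 9 genes was 57.6 to 78.6 FPKM in non-IR libraries and 78.3 to 190 FPKM in IR libraries.

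**Figure D1:**
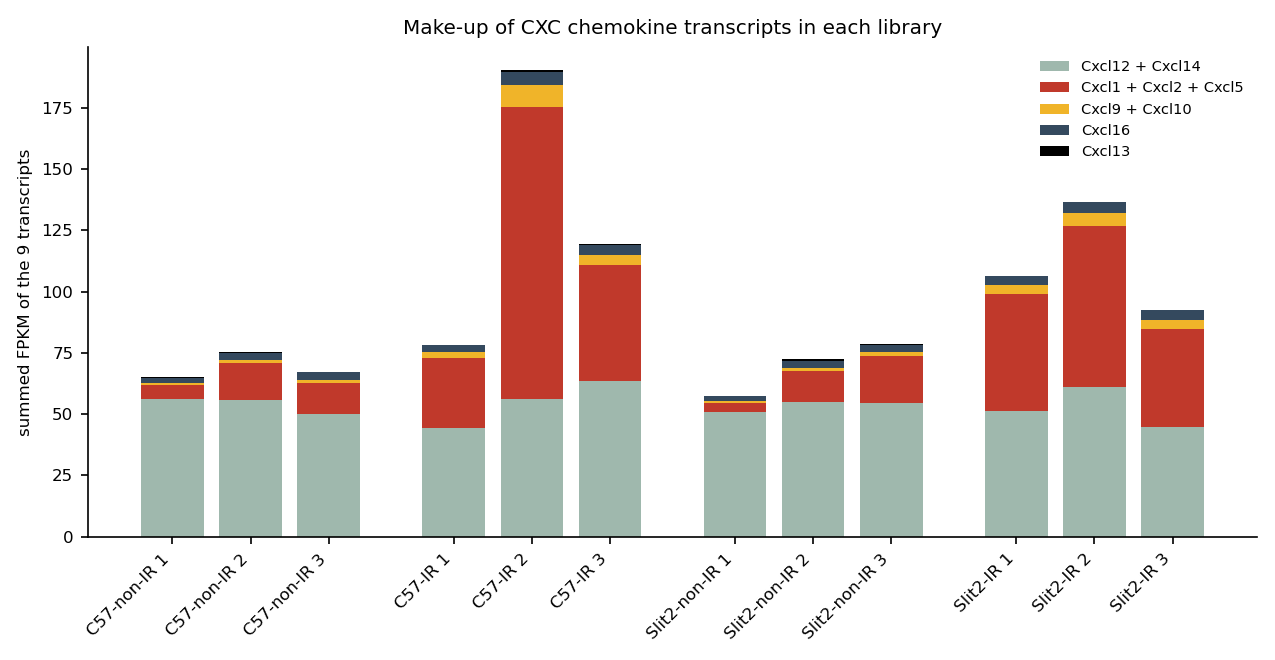
Summed FPKM of the 9 CXC chemokines in each of the 12 libraries, as stacked bars by role; the axis starts at 0. Cxcl12 and Cxcl14 fill most of each non-IR bar, and Cxcl1, Cxcl2 and Cxcl5 add most of the height in IR hearts, up to a total of 190 FPKM in C57-IR replicate 2.

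The comparison of IR with non-IR hearts asked which chemokine transcripts move within 40 min of reperfusion. Taken as the mean of both genotypes, Cxcl1, Cxcl2 and Cxcl10 rose, and no member fell past the threshold. In limma's moderated test with Benjamini-Hochberg adjustment over the 15240 genes with enough reads, these 3 of 9 members passed an adjusted p of 0.05, against a background of 3.49% of all tested genes called in either direction (2.34% higher). At an unadjusted p under 0.05 there were 7 of 9 (6 higher and Cxcl12 lower), against 15.9% of all genes. In C57BL/6J hearts alone, 1 of 9 members was called (Cxcl10, higher), against a background of 0.459%, and 5 of 9 had an unadjusted p under 0.05, against 8.96%. In Slit2-Tg hearts alone, 0 of 9 were called at the adjusted threshold, against a background of 0.525%, and 4 of 9 had an unadjusted p under 0.05, against 11.2% of all genes. All 9 members passed the filter on low values. Cxcl13 did so with exactly 3 libraries, and Cxcl10 only through the 6 IR libraries, since 0 of 6 non-IR libraries reached 10 reads at median depth. Cxcl10 thus had to be high after IR to be tested, and its calls are given as a description. The median log2 difference over the 9 genes was 0.50 in C57BL/6J and 0.45 in Slit2-Tg hearts, beside medians of 0.00149 and 0.00528 over all tested genes.

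The replicate number is the digit of the sample title, and the labels name no batch or pairing by it. Deviations of same-numbered libraries correlated at 0.143 to 0.294 in Slit2-Tg hearts, and a block on this number was fitted over all 12 libraries. With it, 3 of 9 members were called in Slit2-Tg hearts instead of 0. The background was also higher with the block, at 1.33% of tested genes. The members called were Cxcl1 (adjusted p = 0.0322, limma), Cxcl2 (adjusted p = 0.0397, limma) and Cxcl10 (adjusted p = 0.0369, limma). In C57BL/6J hearts the block gave calls for the same 3 members instead of 1, with a background of 1.14% of tested genes. Values of C57-IR and C57-non-IR libraries did not overlap for 5 of 9 members (Cxcl1, Cxcl2, Cxcl5 and Cxcl10 higher, Cxcl12 lower), against a background of 13.8%. Slit2-IR and Slit2-non-IR libraries did not overlap for 5 of 9 (Cxcl1, Cxcl2, Cxcl5, Cxcl10 and Cxcl16, all higher), against a background of 16.9%. Since Cxcl10 had to be high after IR to be tested, its part in each of these counts is a description only.

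**Figure D2:**
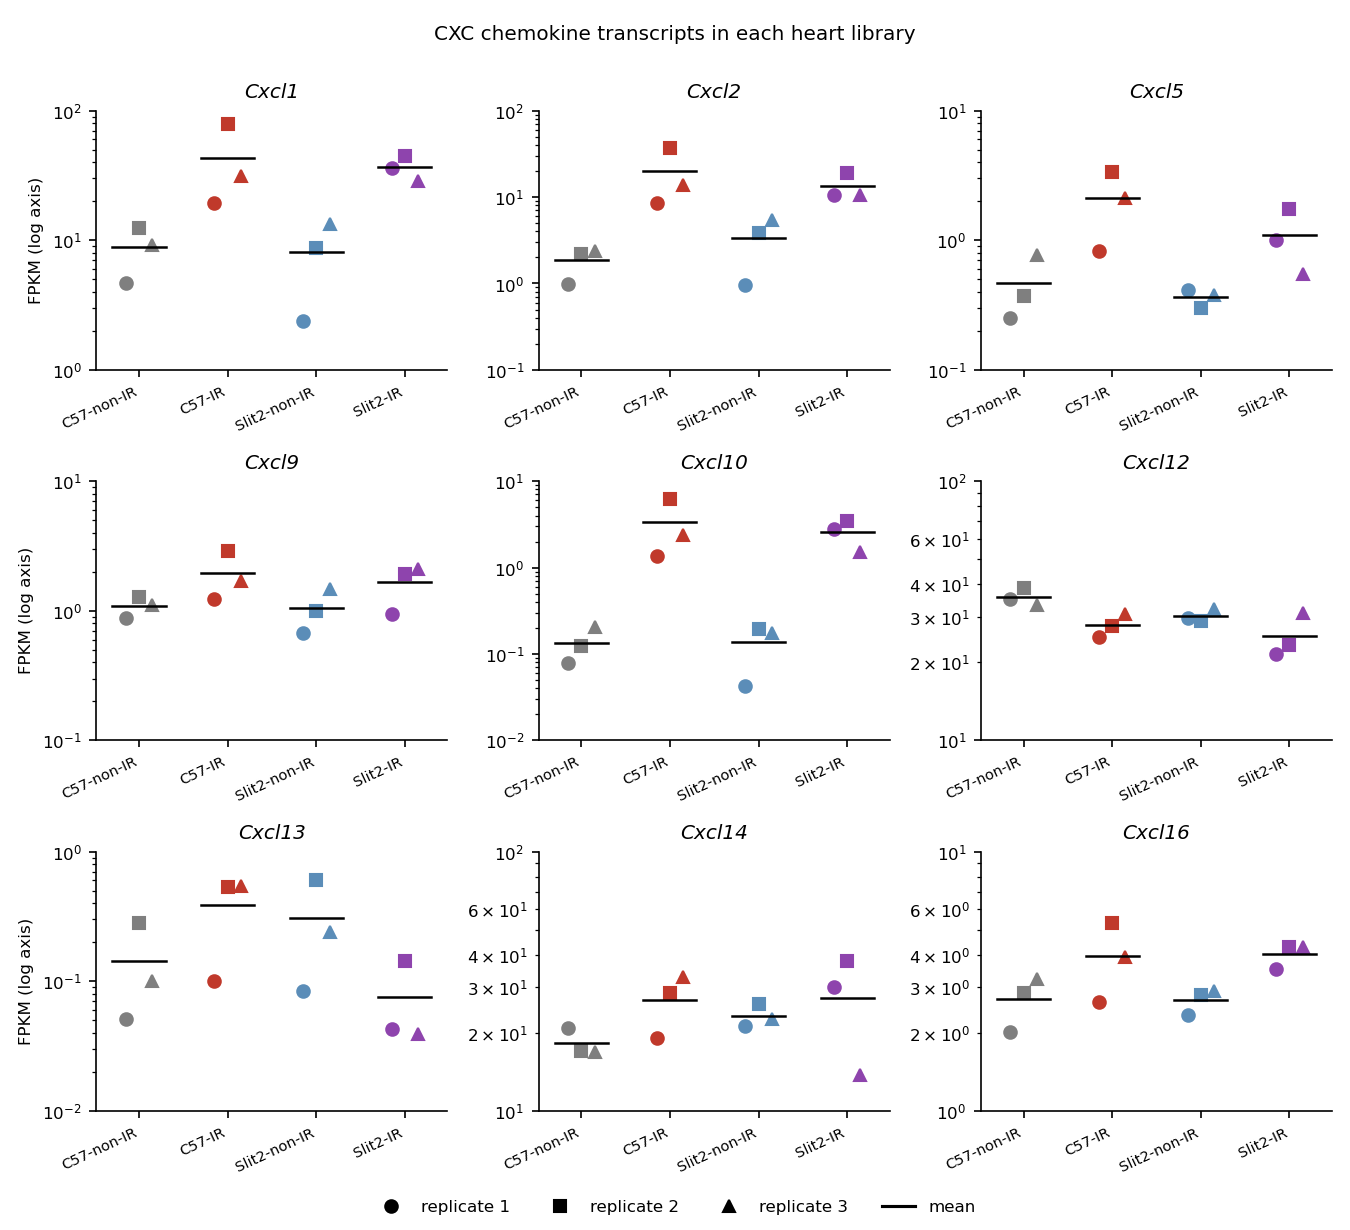
FPKM (log axis) of each of the 9 chemokines in every library, by group; circles, squares and triangles are replicates 1, 2 and 3 and the bar is the mean. Cxcl1, Cxcl2, Cxcl5 and Cxcl10 separate IR from non-IR libraries in both genotypes, with Cxcl10 at 0.0428 to 0.205 FPKM in non-IR and 1.35 to 6.23 FPKM in IR libraries.

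Cxcl1, a main neutrophil attractant of the mouse, had 4.70, 12.4 and 9.28 FPKM in C57-non-IR replicates 1 to 3 and 19.3, 78.7 and 31.2 FPKM in C57-IR replicates 1 to 3. It had 2.37, 8.72 and 13.3 FPKM in Slit2-non-IR and 36.1, 44.9 and 28.8 FPKM in Slit2-IR libraries. Every IR library was above every non-IR library, and the highest and lowest C57-IR values were far apart. The mean was 43.1 ± 31.4 FPKM in C57-IR and 36.6 ± 8.04 in Slit2-IR (SD, n = 3), 4.90-fold and 4.50-fold the non-IR means of 8.80 ± 3.89 and 8.13 ± 5.50. The log2 difference was 2.02 (SE 0.57, adjusted p = 0.197, limma) in C57BL/6J and 2.25 (SE 0.57, adjusted p = 0.119) in Slit2-Tg hearts. Averaged over both genotypes it was 2.14 (SE 0.40, adjusted p = 0.0150, limma). In order of their means the groups were C57-IR, Slit2-IR, C57-non-IR and Slit2-non-IR, and the first 2 overlapped, as did the last 2.

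Cxcl2, also a ligand of Cxcr2 and typically made by macrophages and other myeloid cells, had 0.994, 2.22 and 2.40 FPKM in C57-non-IR and 8.62, 37.1 and 13.8 FPKM in C57-IR libraries. In Slit2-Tg hearts it had 0.956, 3.79 and 5.39 FPKM without IR and 10.5, 19.0 and 10.5 FPKM after it. IR libraries were again all above non-IR libraries. The mean after IR was 10.6-fold the non-IR mean in C57BL/6J hearts (19.8 ± 15.1 against 1.87 ± 0.766 FPKM, SD, n = 3) and 3.94-fold in Slit2-Tg hearts (13.3 ± 4.95 against 3.38 ± 2.24). The log2 differences were 2.65 (SE 0.52, adjusted p = 0.0621, limma) and 1.82 (SE 0.52, adjusted p = 0.164), and their mean was 2.24 (SE 0.37, adjusted p = 0.00750). The 2 genotypes' responses did not differ past the threshold, with an interaction of -0.83 (95% confidence interval -2.45 to 0.79) on the log2 scale. The non-IR groups came in the order Slit2-non-IR and C57-non-IR, and the IR groups in the order C57-IR and Slit2-IR, each pair with overlapping values.

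Cxcl5, the neutrophil attractant of epithelial and stromal cells, was far lower. It had 0.252, 0.373 and 0.775 FPKM in C57-non-IR, 0.830, 3.35 and 2.13 in C57-IR, 0.414, 0.303 and 0.382 in Slit2-non-IR and 1.005, 1.74 and 0.554 in Slit2-IR libraries. IR values lay above non-IR values within each genotype, by a narrow margin in C57-IR replicate 1 and Slit2-IR replicate 3. The log2 difference averaged 0.80 (SE 0.20, adjusted p = 0.0559, limma), 1.01 in C57BL/6J and 0.58 in Slit2-Tg hearts, none past the adjusted threshold. The mean difference passed in 4 of 17 alternatives, which were a pseudocount of 0.1 (adjusted p = 0.0351), the replicate block (0.0418) and the fits without C57-IR replicate 1 (0.00550) or Slit2-IR replicate 3 (0.0396), and adjusted p was up to 0.139 in the others. It rested on 8 to 25 reads in each non-IR and 23 to 123 reads in each IR library. Between Slit2-IR and C57-IR hearts it differed by -0.51 (95% confidence interval -1.13 to 0.10) on the log2 scale.

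Cxcl10, a Cxcr3 ligand known from interferon and NF-kB responses, was near the limit of detection in non-IR hearts, and its ratio of means after IR was the highest of the 9 members in both genotypes. It had 0.0782, 0.123 and 0.205 FPKM in C57-non-IR and 1.35, 6.23 and 2.41 FPKM in C57-IR libraries. In Slit2-Tg hearts it had 0.0428, 0.193 and 0.175 FPKM without IR and 2.78, 3.43 and 1.49 FPKM after it. The lowest IR library was above the highest non-IR library of either genotype. The ratio of group means was 24.6 in C57BL/6J and 18.8 in Slit2-Tg hearts, set against only 2 to 10 reads in each non-IR library and 53 to 277 reads in each IR library. The log2 difference was 1.77 (SE 0.33, adjusted p = 0.04997, limma, just under the threshold) in C57BL/6J hearts and 1.61 (SE 0.33, adjusted p = 0.0617) in Slit2-Tg hearts. The mean of both was 1.69 (SE 0.23, adjusted p = 0.00358). With a pseudocount of 0.1 in place of 1 the log2 differences were 3.63 and 3.49 in the 2 genotypes. limma-voom on the recovered reads gave 4.33 (adjusted p = 0.0920) and 4.24 (adjusted p = 0.0684). Leaving out 1 library at a time, the C57BL/6J call held without C57-IR replicate 1 or Slit2-IR replicate 3 and was lost without each of the other 10 (adjusted p from 0.0566 to 0.182). Art3 overlaps Cxcl10 on the opposite strand, and the use of strand in counting is not given in the sources used here. Art3 had means of 77.3 and 75.4 FPKM in C57-non-IR and C57-IR hearts and 76.8 and 66.0 FPKM in Slit2-non-IR and Slit2-IR hearts. Its log2 differences after IR were -0.04 (adjusted p = 0.998, limma) in C57BL/6J and -0.22 (adjusted p = 0.764) in Slit2-Tg hearts. The longest coding transcript of Cxcl10 shared 0 of its 1304 windows of 50 bases with transcripts of other genes, and the rest of its gene length was not searched. The part of Art3 reads in the Cxcl10 values was not tested.

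Cxcl9, the other Cxcr3 ligand and a classic interferon-gamma transcript, had 0.876, 1.27 and 1.11 FPKM in C57-non-IR and 1.23, 2.91 and 1.68 FPKM in C57-IR libraries. It had 0.671, 0.992 and 1.47 FPKM in Slit2-non-IR and 0.947, 1.93 and 2.11 FPKM in Slit2-IR libraries. Groups overlapped in both genotypes, and the mean log2 difference was 0.41 (SE 0.16, adjusted p = 0.224, limma). Cxcl9 exceeded Cxcl10 by 5.15-fold to 15.7-fold in the 6 non-IR libraries. In the 6 IR libraries the ratio of Cxcl9 to Cxcl10 was 0.341 to 1.41, and it was above 1 only in Slit2-IR replicate 3. Per length of the longest coding transcripts the ratio was 3.23 to 9.83 in non-IR and 0.214 to 0.887 in IR libraries, so that Slit2-IR replicate 3 was then below 1 as well. On both scales the ranges of IR and non-IR libraries did not overlap. Cxcl10 had to be high after IR to be tested, and it held only 2 to 10 reads in each non-IR library. This ratio is therefore a description and was not tested.

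The ratio of Cxcl1 to Cxcl2 followed another pattern. It was 4.73, 5.60 and 3.86 in C57-non-IR and 2.24, 2.12 and 2.26 in C57-IR libraries, without overlap. In Slit2-Tg hearts it was 2.47, 2.30 and 2.47 without IR and 3.45, 2.36 and 2.75 after it, and these overlapped. The C57-non-IR libraries had the 3 highest ratios of all 12. Per transcript length every ratio is higher by a common factor (6.83 to 9.91 in C57-non-IR and 3.76 to 6.11 in the other libraries), and the order is the same. This ratio was examined after the values were seen and was not tested.

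**Figure D3:**
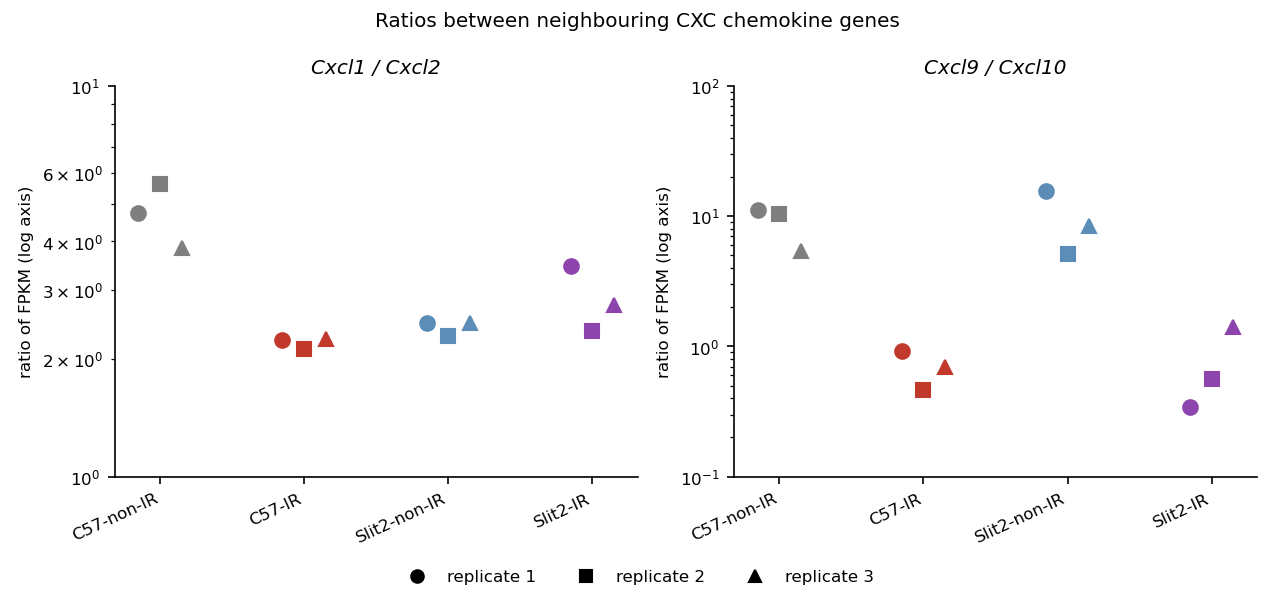
Ratio of FPKM of Cxcl1 to Cxcl2 (left) and of Cxcl9 to Cxcl10 (right) in each library, on log axes; symbols are replicates. The Cxcl9 to Cxcl10 ratio lies between 5.15 and 15.7 in non-IR and between 0.341 and 1.41 in IR libraries, and the Cxcl1 to Cxcl2 ratio is at or above 3.86 in C57-non-IR libraries alone. Cxcl10 held 2 to 10 reads in each non-IR library, and neither ratio was tested.

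Cxcl12, the ligand of Cxcr4 and Ackr3, was the most abundant member in non-IR hearts on the per-length scale and was the 1 member with a negative difference after IR in C57BL/6J hearts, without passing the adjusted threshold. It had 35.2, 38.7 and 33.3 FPKM in C57-non-IR and 25.1, 27.7 and 30.8 FPKM in C57-IR libraries, which did not overlap. It had 29.5, 29.0 and 32.1 FPKM in Slit2-non-IR and 21.5, 23.3 and 31.0 FPKM in Slit2-IR libraries, which overlapped through Slit2-IR replicate 3. The mean after IR was 0.781 of the non-IR mean in C57BL/6J and 0.836 in Slit2-Tg hearts. The log2 difference averaged -0.31 (SE 0.09, unadjusted p = 0.00717, adjusted p = 0.111, limma), and it passed in 1 of 18 alternatives, that without Slit2-IR replicate 3 (-0.38, adjusted p = 0.0230), with adjusted p up to 0.229 in the others. Group means ran from C57-non-IR (35.7 ± 2.74) over Slit2-non-IR (30.2 ± 1.65) and C57-IR (27.9 ± 2.84) to Slit2-IR (25.3 ± 5.08 FPKM, SD, n = 3). Of the neighbours in that order, only C57-non-IR and Slit2-non-IR did not overlap.

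Cxcl14 was the next most abundant constitutive member, and its receptor use is debated. It had 20.8, 17.1 and 16.8 FPKM in C57-non-IR, 19.1, 28.5 and 32.8 in C57-IR, 21.2, 25.9 and 22.6 in Slit2-non-IR and 30.0, 37.9 and 13.7 FPKM in Slit2-IR libraries. The IR groups spanned the non-IR values on both sides in Slit2-Tg hearts, where replicate 3 was the lowest of all 12 libraries. The log2 difference was 0.50 (95% confidence interval -0.16 to 1.17) in C57BL/6J and 0.11 (-0.56 to 0.78) in Slit2-Tg hearts.

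Cxcl16, a membrane-anchored chemokine and scavenger receptor that ADAM proteases release, had 2.02, 2.85 and 3.21 FPKM in C57-non-IR and 2.64, 5.32 and 3.92 FPKM in C57-IR libraries. It had 2.35, 2.80 and 2.90 FPKM in Slit2-non-IR and 3.54, 4.30 and 4.28 FPKM in Slit2-IR libraries. The groups were apart in Slit2-Tg hearts and overlapped in C57BL/6J hearts. Its log2 difference was similar in size in both, 0.40 and 0.45, with a mean of 0.43 (SE 0.13, unadjusted p = 0.00807, adjusted p = 0.119, limma). The mean difference passed in 2 of 18 alternatives, the replicate block and the fit without C57-IR replicate 1 (adjusted p = 0.0218, limma). Adjusted p was up to 0.237 in the others. The opposite-strand neighbour Zmynd15 had group means of 0.509 to 0.662 FPKM and a mean log2 difference of 0.06.

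Cxcl13, the B cell attractant, was close to the limit of detection, with 1 to 16 reads in a library. It had 0.0511, 0.282 and 0.1005 FPKM in C57-non-IR, 0.0996, 0.529 and 0.542 in C57-IR, 0.0838, 0.603 and 0.240 in Slit2-non-IR and 0.0428, 0.144 and 0.0390 FPKM in Slit2-IR libraries. The groups overlapped in every comparison. Lung markers summed to 0.279, 5.72 and 9.74 FPKM in C57-non-IR, 0.246, 9.51 and 11.2 in C57-IR, 0.188, 12.4 and 0.140 in Slit2-non-IR and 0.121, 0.225 and 0.257 FPKM in Slit2-IR libraries. The libraries low for them included all 3 Slit2-IR libraries, which held 1 to 4 reads of Cxcl13, and their part in the Cxcl13 values was not tested. Its IR differences were 0.27 in C57BL/6J and -0.27 in Slit2-Tg hearts on the log2 scale, with an interaction of -0.53 (95% confidence interval -1.02 to -0.05, unadjusted p = 0.0325, adjusted p = 0.9998, limma).

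**Figure D4:**
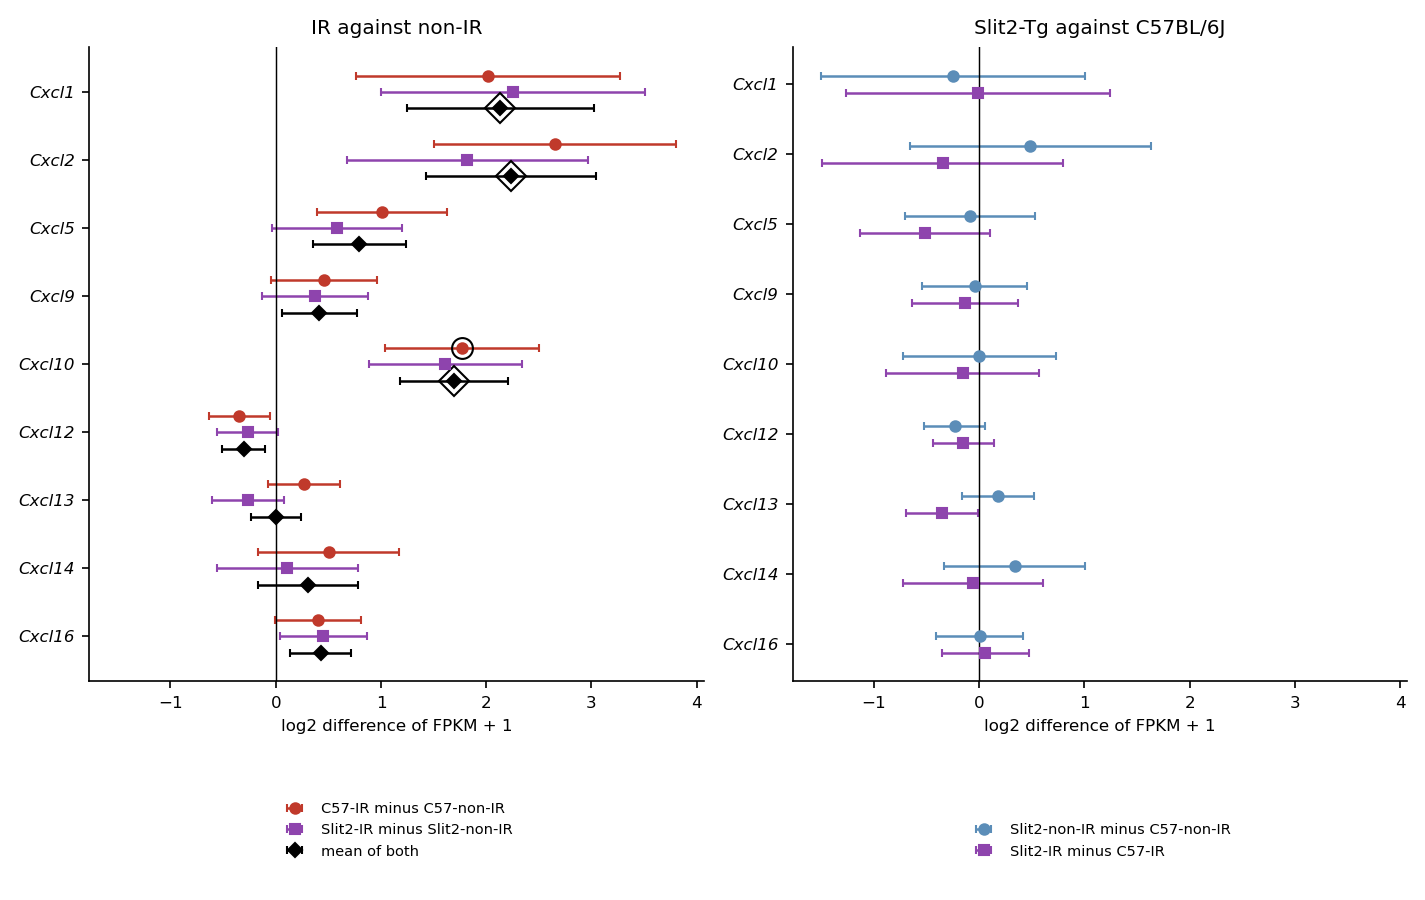
Log2 differences of FPKM + 1 for the 9 chemokines with 95% confidence intervals from limma, for IR against non-IR (left) and Slit2-Tg against C57BL/6J (right); a larger open outline marks an adjusted p under 0.05. Outlines stand on Cxcl1, Cxcl2 and Cxcl10 for the mean IR effect and on Cxcl10 in C57BL/6J hearts, and on no member in the right panel.

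The comparison of Slit2-Tg with C57BL/6J hearts asked whether these transcripts differed between the genotypes without or after IR. The transgene was made in oocytes of a C57 and CBA cross, so its effects and those of the line's background cannot be told apart. No member was called in either state. Without IR, 0 of 9 had an adjusted p under 0.05 by limma, against a background of 0.0394% of tested genes, and 0 of 9 had an unadjusted p under 0.05, beside 3.19% of all genes. After IR, 0 of 9 passed, against a background of 0.0459%, and 1 of 9 (Cxcl13, -0.35 on the log2 scale, unadjusted p = 0.0424) had an unadjusted p under 0.05, beside 3.16% of all genes. For the interaction of genotype and IR, 0 of 9 passed, against a background of 0%, and Cxcl13 was again the 1 member with an unadjusted p under 0.05, beside 1.86% of all genes. limma-voom called 0 of 9 in these 3 comparisons as well.

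A p-value that misses the threshold does not show equality, and the intervals were wide for the induced members. After IR the Slit2-Tg difference was -0.01 for Cxcl1 (95% confidence interval -1.27 to 1.24), -0.35 for Cxcl2 (-1.49 to 0.80) and -0.16 for Cxcl10 (-0.89 to 0.57) on the log2 scale. For Cxcl12 it was narrower, at -0.15 (-0.44 to 0.14). The estimate was below 0 for 8 of 9 members after IR, the exception being Cxcl16, with a median of -0.15 beside -0.000229 over all tested genes. That count did not hold over the alternative fits. There the estimate reached 0.53 for Cxcl1, 0.21 for Cxcl2, 0.09 for Cxcl9, 0.29 for Cxcl10 and 0.35 for Cxcl14. For Cxcl5, Cxcl12 and Cxcl13 it stayed below 0 in every alternative. Without IR, 5 estimates were above 0 and 4 below. Slit2-non-IR and C57-non-IR values did not overlap for 2 of 9 members (Cxcl14 higher and Cxcl12 lower in Slit2-Tg hearts), against a background of 9.2%. Slit2-IR and C57-IR values overlapped for all 9, where 6.47% of tested genes did not overlap. The comparisons after and without IR share no libraries with each other, whereas each shares its groups with the IR comparisons.

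Libraries differed within groups in a way that many members shared. C57-IR replicate 2 had the highest value of all 12 libraries for 6 of 9 members, and C57-IR replicate 1 had the lowest value of its group for 9 of 9. C57-non-IR replicate 1 and Slit2-non-IR replicate 1 were each the lowest of their group for 7 members, and Slit2-IR replicate 2 was the highest of its group for 7. These ranks were not counted over all tested genes, so they are not shown to be particular to the chemokines. C57-IR replicate 1 also had the lowest sums of its group for macrophage markers (110 FPKM, against 218 and 244), adipose markers (0.105, against 14.1 and 17.2) and lung markers (0.246, against 9.51 and 11.2). Adipose markers summed to 0, 0.847 and 0.292 FPKM in C57-non-IR, 1.41, 6.68 and 7.97 in Slit2-non-IR and 10.02, 1.68 and 0.772 FPKM in Slit2-IR libraries. They were thus higher in 2 of 3 C57-IR libraries than in any C57-non-IR library, and higher in every Slit2-non-IR than in every C57-non-IR library. The part of these markers in the chemokine values was not tested. Slit2-IR replicate 1 held 1650 FPKM of atrial markers, against 19.9 to 227 FPKM in the other 11 libraries, and was the highest of its group for 0 members. Without C57-IR replicate 1, Cxcl2 (adjusted p = 0.0189), Cxcl5 (adjusted p = 0.0186) and Cxcl10 (adjusted p = 0.00601, limma) were all called in C57BL/6J hearts, where the share of all tested genes called was then 1.67% instead of 0.459%.

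Markers of the neutrophils and lymphocytes that these chemokines attract were near 0. The 7 neutrophil markers summed to 0.361 to 1.46 FPKM in C57-non-IR, 0.159 to 0.565 in C57-IR, 0.219 to 0.753 in Slit2-non-IR and 0.298 to 0.747 FPKM in Slit2-IR libraries, and Ly6g was at 0 in all 12. The 5 T cell markers summed to 0.163 to 0.467 FPKM and the 4 B cell markers to 0.172 to 0.278 FPKM. Neutrophil markers were thus near 0 in IR and non-IR hearts alike. Macrophage markers, 7 of 7 found, were at 110 to 244 FPKM in IR and 140 to 248 FPKM in non-IR libraries. Over all libraries endothelial markers summed to 134 to 205 FPKM, fibroblast markers to 88.9 to 175, pericyte markers to 139 to 275, mesothelial markers to 0.844 to 5.16 and red blood cell markers to 1.47 to 49.0 FPKM.

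Of the receptors, Cxcr1 was at 0 in all libraries and Cxcr2, the receptor of Cxcl1, Cxcl2 and Cxcl5, had reads in 1 of 12 libraries (2 reads). Group means of Cxcr3, Cxcr5, Cxcr6 and Ackr1 were at most 0.352 FPKM, and these 6 receptors were not tested. Both receptors of Cxcl12 were expressed. Ackr3, which binds and removes Cxcl12, had 28.6 to 31.8 FPKM in C57-non-IR, 34.9 to 51.3 in C57-IR, 23.2 to 41.4 in Slit2-non-IR and 42.6 to 52.3 FPKM in Slit2-IR libraries. The IR and non-IR ranges of Ackr3 did not overlap in either genotype, as for 13.8% of all tested genes in C57BL/6J and 16.9% in Slit2-Tg hearts. Its mean log2 difference was 0.52 (SE 0.15, adjusted p = 0.0892, limma). Cxcr4 had 2.16 to 5.77 FPKM in non-IR and 3.87 to 11.0 FPKM in IR libraries, with a mean log2 difference of 0.72 (SE 0.27, adjusted p = 0.199, limma). Ackr4 had a difference of -0.35 (adjusted p = 0.395, limma), so that 0 of 3 tested receptors were called, against a background of 3.49% of all tested genes. At an unadjusted p under 0.05 there were 2 of 3, both higher, against 15.9% of all genes.

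Of the 6 other CXC ligands, Pf4, the platelet chemokine also made by tissue macrophages, was the only one tested (platelet markers summed to 0.494 to 0.987 FPKM). Its group means were 25.1 to 31.7 FPKM with a mean log2 difference after IR of 0.10 (adjusted p = 0.878, limma). Cxcl3, next to Cxcl1 and Cxcl2 in function, had 0 reads in C57-non-IR libraries and 1 to 17 reads in C57-IR libraries. It had 0 to 3 reads in Slit2-non-IR and 5 reads in each Slit2-IR library, and part of its sequence is shared with Cxcl2. Ppbp had group means of 0.0925 to 0.316 FPKM, and Cxcl11, annotated as a polymorphic pseudogene, Cxcl15 and Cxcl17 had at most 5 reads in a library.

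Genes of TNF, IL-1, IL-17 and NF-kB signalling, known to act upstream of Cxcl1, Cxcl2 and Cxcl10, were higher after IR. Of 15 listed and tested, 11 rose and 0 fell in the mean IR comparison (adjusted p under 0.05, limma), against 3.49% of all tested genes called in either direction. In each genotype alone 3 rose, against 0.459% in C57BL/6J and 0.525% in Slit2-Tg hearts. Il1a and Il17a held at most 4 and 3 reads in a non-IR library and passed the filter only through IR libraries. They thus had to be high after IR to be tested, and their place in the list is a description. The median log2 difference of the list was 0.91, beside 0.43 for the 9 chemokines and 0.00363 for all tested genes. Several of these genes were among those the study picked from these libraries, so the list is not independent evidence of its direction. Tnf had 1.07 to 2.20 FPKM in C57-non-IR, 6.89 to 27.5 in C57-IR, 1.18 to 2.46 in Slit2-non-IR and 7.31 to 13.9 FPKM in Slit2-IR libraries. Its mean log2 difference was 2.09 (adjusted p = 0.00393). The NF-kB feedback inhibitor Tnfaip3 (1.71, adjusted p = 0.000572) and the co-regulator Bcl3 (1.58, adjusted p = 0.00199) rose as well, and both were called in each genotype. Nfkb1 had the lowest value of the list, 0.12 (adjusted p = 0.409). Il17a passed the filter with 0 to 44 reads per library and had 0.72 (adjusted p = 0.101).

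Interferon genes were divided. Of 10 tested signalling genes, Irf1 (1.37, adjusted p = 0.00393, limma) and Irf8 (0.82, adjusted p = 0.00419) rose in the mean IR comparison and none fell, and the lowest value was that of Ifngr1 (-0.17). These and the following counts at the adjusted threshold stand beside 3.49% of all tested genes called in either direction. Ifng and Ifnb1 had at most 6 and 12 reads in a library and were not tested. Of 8 interferon-induced genes, which share inducers with Cxcl9 and Cxcl10, 0 were called and 2 had an unadjusted p under 0.05 (Isg15 and Gbp5, opposite in sign), a share near the 15.9% of all tested genes. Their values ran from -0.26 for Gbp5 to 0.81 for Isg15 (adjusted p = 0.0894). Among 4 regulators of chemokine mRNA decay, Zfp36 (1.33, adjusted p = 0.0428) and Zfp36l1 (0.78, adjusted p = 0.0413) rose. Zfp36 encodes tristetraprolin, which binds AU-rich elements of cytokine transcripts. Of 5 proteases that shed or cleave chemokines, Adam10, which releases Cxcl16, had 0.06 (adjusted p = 0.790), and 0 were called. Of 4 syndecans, heparan sulfate carriers that hold chemokines at the cell surface, Sdc4 rose (1.12, adjusted p = 0.00332, limma) and the others did not pass.

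**Figure D5:**
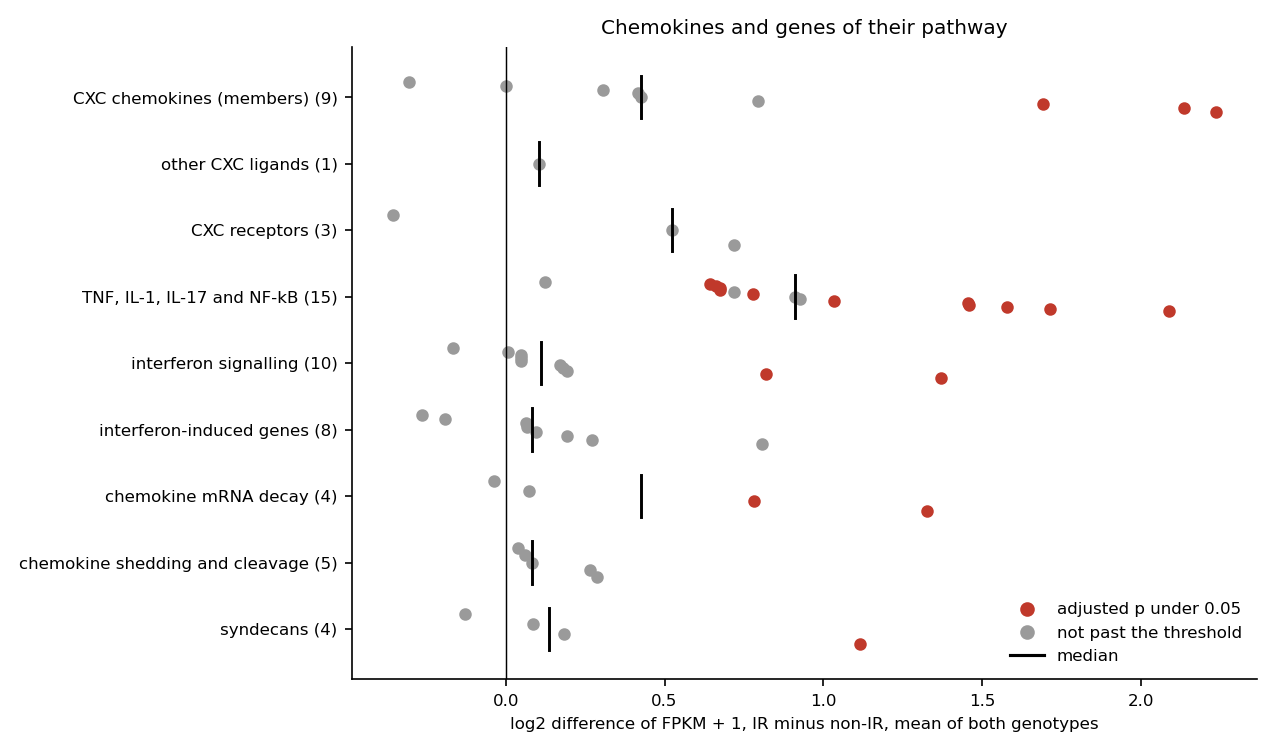
Log2 difference of FPKM + 1, IR minus non-IR as the mean of both genotypes, for each tested gene of 9 lists (number tested in brackets); red points have an adjusted p under 0.05 and the black line is the list median. Red points number 3 of 9 for the chemokines, 11 of 15 for TNF, IL-1, IL-17 and NF-kB, and 0 of 8 for the interferon-induced genes.

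Genes most like each member were ranked by Pearson correlation of log2(FPKM + 1) over the 12 libraries, which share the group differences. Closest to Cxcl1 were Birc3 (r = 0.98), Socs3 and Adamts1, and closest to Cxcl2 were Cd83 (r = 0.99), Arid5b and Tnf. Cxcl10 was most like Gcc1 (r = 0.99), Hbegf and Tnfsf9, and Cxcl5 most like Pde12 (r = 0.94), Ptp4a1 and Plek. For Cxcl16 they were Arf4 (r = 0.96), Tcf21 and Gm6793, and for Cxcl9 Tpm3-rs7 (r = 0.93), Stx12 and Srgn. Cxcl12 stood with Stk16 (r = 0.93), Arhgef15 and Sox18, the last of which is an endothelial transcription factor. Cxcl14 was closest to Zfp703 (r = 0.85), Hhex and Icosl, and Cxcl13 to Rbm14 (r = 0.88), Ppfibp1 and Orc5. Among the members, Cxcl1 and Cxcl2 had r = 0.96 over all libraries and 0.97 after the group means were removed, whereas Cxcl1 and Cxcl12 had r = -0.51 and 0.11.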

How the data were processed

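The authors deposited FPKM per gene for 12 heart libraries with Ensembl identifiers, symbols, GRCm38 coordinates and gene length. The submitters' processing notes name HISAT2 and mm10. Counting tool, annotation release and strand use are not given in the sources used here. Genotype is in the labels, and IR status was read from the letters of each title against the groups in the methods. The design text gives 3 independent samples per group. FPKM multiplied by gene length gave whole reads for 100% of values (tolerance 0.01 read), and the steps followed size factors common to all libraries. There were 0 unused per-library columns.

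A gene was tested when 3 or more libraries held 10 or more of its reads at median depth (15240 genes) with limma 3.58.1 in R 4.3.3, as a moderated test with variance trend on log2(FPKM + 1), in 1 fit of 12 libraries with 4 group means. No adjustment for multiple tests is stated in the methods, and the threshold here was a Benjamini-Hochberg adjusted p of 0.05. All p-values are two-sided. The members, the pathway and marker lists and the tests were chosen with earlier results of these data known, and several of these genes are named by the study from these libraries. Named genes are the members, other CXC ligands and receptors, listed pathway genes called or extreme in a list, and the 3 closest protein-coding genes to each member (mean FPKM of at least 1). Same-numbered libraries correlated in their deviations from group means at 0.143 to 0.294 in the Slit2-Tg IR comparison and at 0.154 to 0.362 between Slit2-IR and C57-IR. In each of the other pairwise comparisons at least 1 pair was under 0.1, and for these the block is given only as 1 of the alternative fits. The labels name no batch or pairing by the replicate number. The fit was also run on simulated reads. Their libraries were independent and their spread was smaller than that of the induced members in C57-IR hearts, so they do not check the fit for these members. Gene models are from GENCODE M21, promoters from RefSeq (GRCm38.p6). Python 3.11.15, pandas 2.3.3 and matplotlib 3.10.9 were used.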

Additional observations from a re-analysis of the deposited data

How the results depend on the processing

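In C57BL/6J hearts the count of called members, 1 as reported, was 0 with no filter beyond 1 read, with at least 10 reads in every library (6 members left, without Cxcl10), with only the libraries compared, with scaling to reads outside the mitochondrial genome and with limma-voom. It was 3 with the replicate block (Cxcl1, Cxcl2 and Cxcl10), and 0 to 3 when 1 library was left out, with 3 without C57-IR replicate 1. The share of all tested genes called was 1.14% with the block and 1.67% without C57-IR replicate 1, against 0.459% as reported. It was 0.0248% with no filter, 0.509% with at least 10 reads in every library and 0.0591% with only the libraries compared. With the mitochondrial scaling it was 0.262%, with limma-voom 0.21%, and when 1 library was left out it was 0.0197% to 1.67%. The call of Cxcl10 in these hearts thus rested on the settings, as did the share called over all tested genes. In Slit2-Tg hearts the count, 0 as reported, was 1 with a pseudocount of 0.1 and with only the libraries compared (Cxcl10 each time), 3 with the replicate block, and 0 to 1 when 1 library was left out, with 1 without C57-IR replicate 1 or replicate 2. Of all tested genes, 0.689% were called with that pseudocount, 0.394% with only the libraries compared and 1.33% with the block. Without C57-IR replicate 1 or replicate 2 the shares were 1.18% and 1.15%, against 0.525% as reported. For the mean of both genotypes the count, 3 as reported, was 4 with a pseudocount of 0.1 (Cxcl5 added) and 5 with the replicate block (Cxcl5 and Cxcl16 added). It was 3 to 5 when 1 library was left out. The count was 5 without C57-IR replicate 1 (Cxcl5 and Cxcl16 added) or Slit2-IR replicate 3 (Cxcl5 and Cxcl12 added). The share of all tested genes called was 3.58% with that pseudocount and 5.07% with the block, against 3.49% as reported. It was 4.68% without C57-IR replicate 1 and 3.39% without Slit2-IR replicate 3. Cxcl2 and Cxcl10 kept their mean IR call in every alternative that tested them, and Cxcl1 lost it only with no filter (adjusted p = 0.0515). The genotype and interaction comparisons called 0 members in every alternative, and the block changed no call there. Over all tested genes the calls were 70 in C57BL/6J, 80 in Slit2-Tg and 532 for the mean, and ran from 3 to 254, 4 to 202 and 299 to 773 over the alternatives, the highest without C57-IR replicate 1 in C57BL/6J and with the block in the other 2. The fit on only the libraries compared was run for the 4 pairwise comparisons. The causes were not tested. Low reads limit Cxcl13, Cxcl10 before IR and Cxcl5.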
